A study of Mus musculus with 2 samples.

Results

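Mir210 is the mouse gene for miR-210, and it was found here as the 1 row, of 1973 miRNA genes counted, whose Ensembl identifier (ENSMUSG00000065551.1) is named Mir210 in the GENCODE mouse annotation. It was measured by small RNA sequencing, with a labelled size limit of 30 nucleotides, in kidneys of B6NCrl mouse embryos at 14.5 days of gestation. The study has 1 group, embryonic kidney, with 2 replicates, and the labels name no mutation or treatment and contrast no oxygen levels. Each replicate was made from 2 kidneys and the replicates carry different collection days. The labels speak of a single pup for each sample but also of both sexes and of 1 donor identifier for both, so the number of embryos behind each library is not settled. Every SD below is the spread of these 2 libraries, part of which may be technical. The tissue is bulk kidney, in which fewer cells of a type and less RNA per cell cannot be told apart.

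miR-210 is best known as the microRNA that rises when oxygen is scarce. In cultured cells the hypoxia-inducible factors, transcription factors that are degraded when oxygen is plentiful, raise its transcription, and the mature miRNA then lowers transcripts such as, in human cells, those of the iron-sulphur cluster scaffold ISCU and the ephrin EFNA3. A miRNA recognises its targets mainly through the seed, bases 2 to 8 of the mature strand. The embryonic kidney grows at low oxygen, and hypoxia-inducible factors have been described in its developing tubules and vessels.

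The molecules behind the count are shown first, since a gene's row sums reads of both arms of the hairpin. Sequences are from RefSeq on GRCm38.p6, with seeds in capitals in the mature arms. Both arms lie on the minus strand of chromosome 7, at chr7:141221407-141221428 for the 3p arm and chr7:141221445-141221466 for the 5p arm.
mmu-miR-210-3p: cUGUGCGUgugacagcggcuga
mmu-miR-210-5p: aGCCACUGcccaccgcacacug
The hairpin that carries them spans chr7:141221384-141221493 and is printed with both arms in capitals, the 5p arm first.
Mir210 hairpin: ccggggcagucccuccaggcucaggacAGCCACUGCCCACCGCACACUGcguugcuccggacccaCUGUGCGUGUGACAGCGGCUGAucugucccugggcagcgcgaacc

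The hairpin is 110 bases long, and the arms take up bases 28 to 49 and 66 to 87, with 16 bases between them. The hairpin is the same in GENCODE and in RefSeq. Its predicted minimum free energy was -48.0 kcal/mol in RNAfold, with 16 predicted pairs between the arms and 6 of the 7 seed bases of the 3p arm paired. G and C made up 69.1% of the hairpin, against a median of 50.5% for the 300 detected genes that have a RefSeq hairpin, and 8 of those 300 were richer in G and C. The 3p arm was 63.6% and the 5p arm 68.2% G and C, and of 578 mature sequences of detected genes 63 were richer in G and C than the 3p arm and 28 than the 5p arm. The 3p seed holds a CG step, as did 87 of those 578 seeds (15.1%).

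No other mouse miRNA in the RefSeq table shares a miR-210 seed. Of 1737 other mature sequences, 0 had the 7-base seed of the 3p arm and 0 that of the 5p arm, and 0 matched either arm over bases 2 to 7. Across 141767 GENCODE transcripts, each arm was found in Mir210 and in no other gene, on either strand. The longest stretch that either arm shares with any of the 2201 other annotated miRNA hairpins was 10 bases. Among the 345 detected genes, 67 have 21 or more bases in a row in common with some other miRNA hairpin, so that their reads can end in the tally of reads mapped to several places, and Mir210 is not among them. Copies outside annotated transcripts were not searched.

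Mir210 stands alone in the genome. In GENCODE M21 it overlaps no other gene on either strand, and the genes on each side are Rassf7, whose end is 2725 bases away, and Phrf1, whose start is 7290 bases away, both on the plus strand. The nearest other miRNA gene, Mir7063, is 399207 bases away. Of the 345 detected miRNA genes, 84 (24.3%) lie in no other gene and 178 (51.6%) have no other miRNA gene within 10000 bases. Mir210 is 1 of 31 detected genes (8.99%) for which both hold, and among the other 30 it was exceeded in mean abundance by 10 and exceeded 20.

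Mir210 was clearly detected and moderately abundant. On the strand of the gene, 1418 reads were counted in replicate 1 and 1109 in replicate 2. With 5202588 and 3683978 counts on miRNA genes in those libraries, this is 273 CPM in replicate 1 (Clopper-Pearson 95% interval 259 to 287) and 301 CPM in replicate 2 (284 to 319), where CPM is counts per 1000000 counts on the strand of miRNA genes. The mean was 287 ± 20.1 CPM (SD, n = 2), a coefficient of variation of 7.02%. As a share, Mir210 held 0.0273% of counts in replicate 1 (0.0259 to 0.0287) and 0.0301% in replicate 2 (0.0284 to 0.0319), or about 1 count in 3669 and 1 in 3322. The intervals cover counting error only, and without molecular identifiers PCR copies cannot be told from separate molecules.

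By mean CPM, Mir210 ranked 129 of 1973 annotated genes. A gene is called detected here at 10 or more counts in each library, which 345 genes reached, and Mir210 ranked 129 among those too. Its rank was 129 in replicate 1 and 126 in replicate 2, and the limits of its counting interval would have placed it between 127 and 131 in replicate 1 and between 122 and 128 in replicate 2. It exceeded 62.6% of the detected genes and 82.0% of the 716 genes with any count. The 67 detected genes that share 21 or more bases with another hairpin can lose reads, so the place of Mir210 against them is uncertain. Mir210 was 2.51 times the median detected gene, 287 against 114 CPM. The genes above it took 98.7% of the counts of replicate 1 and 98.6% of those of replicate 2, and Mir10a, the most abundant gene, exceeded it 534-fold and 474-fold in those libraries.

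**Figure D1:**
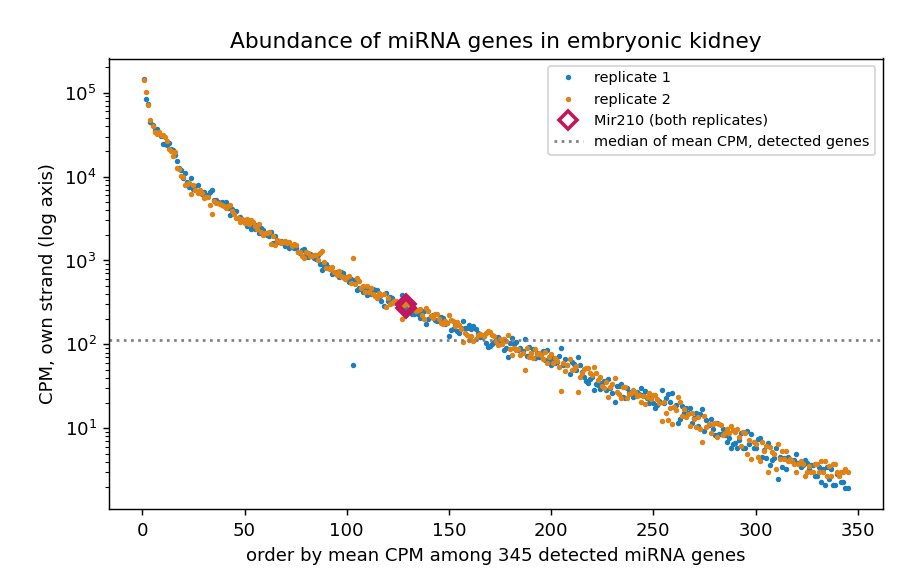
CPM on the strand of the gene (log axis) for each of the 345 detected miRNA genes, in order of mean CPM, with 1 point per replicate. Mir210, marked by diamonds at 273 CPM (replicate 1) and 301 CPM (replicate 2), stands at position 129, above the median of 114 CPM (dotted line).

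All reads of Mir210 were on its own strand. The opposite strand held 0 of 1418 counts in replicate 1, which allows a share of up to 0.212%, and 0 of 1109 in replicate 2, which allows up to 0.271%. Over all miRNA genes that strand held 1.93% and 1.80% of counts. An opposite strand without a count was common, in 313 of the 345 detected genes (90.7%) and in 109 of the 128 that were more abundant than Mir210. When both strands are counted, Mir210 falls to rank 138, because 9 genes pass it, each with more counts on the opposite than on its own strand.

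Next to Mir210 in abundance stood miRNAs of several unrelated loci. Directly above it were Mir222 at 288 ± 13.4 CPM (SD, n = 2), whose miRNA lowers the cell-cycle inhibitor Cdkn1b, and Mir181a-2 at 292 ± 131 CPM. Then came Mir154 at 303 ± 16.2 CPM, Mir106a at 304 ± 5.96 CPM and Mir1193 at 322 ± 9.33 CPM. Mir154 and Mir1193 belong to the imprinted Dlk1-Dio3 locus, and Mir106a to an X-linked relative of the miR-17 cluster. Directly below stood Mir224 at 277 ± 49.95 CPM, Mir223 of myeloid cells at 267 ± 1.86 CPM, Mir433, also of Dlk1-Dio3, at 255 ± 35.6 CPM, Mir340 at 251 ± 29.0 CPM and Mir330 at 246 ± 2.28 CPM.

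The order among these neighbours is mostly within the spread of the libraries. The values of Mir210, 273 and 301 CPM, overlapped those of Mir222, Mir181a-2, Mir154, Mir106a, Mir224 and Mir433. They did not overlap those of Mir1193, which had 316 and 329 CPM, or of Mir223, Mir340 and Mir330, of which Mir340 came nearest at 230 and 271 CPM. Mir210 was below Mir222 in replicate 1, with 273 against 279 CPM, and above it in replicate 2, with 301 against 298 CPM. Among all detected genes, 10 overlapped Mir210, 121 were above it in both libraries' values and 213 below. Mir181a-2 has such a stretch of 21 bases in common with another gene, so its 384 and 199 CPM are uncertain.

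Over both libraries together, the genes most like Mir210 were Mir222, Mir154, Mir106a, Mir223 and Mir1193. Likeness was the Euclidean distance in log2(CPM + 1) over the 2 libraries, which was 0.04 for Mir222, 0.11 for Mir154, 0.14 for Mir106a, 0.17 for Mir223 and 0.25 for Mir1193. With 2 samples of 1 condition this measures similar abundance and little else.

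**Figure D2:**
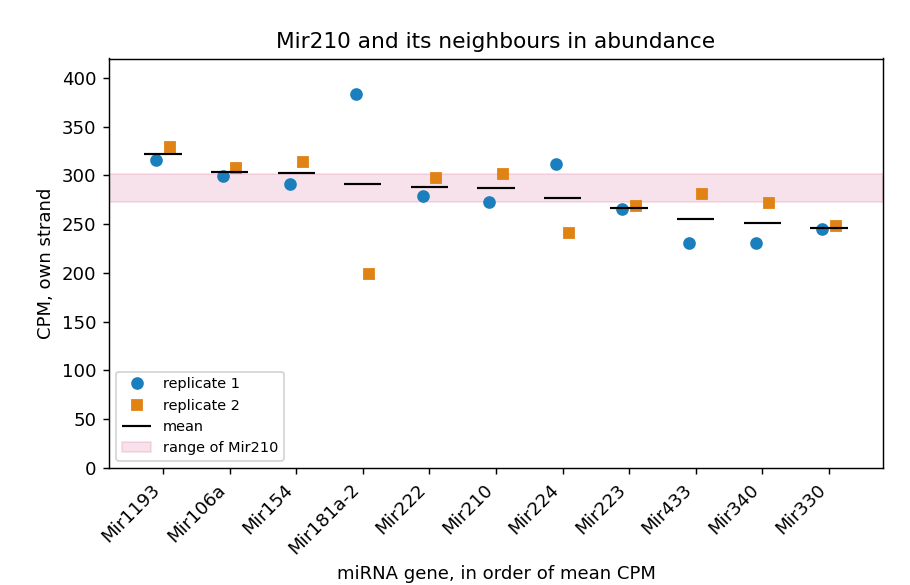
CPM on the strand of the gene for Mir210 and the 5 detected genes on each side of it, in order of mean CPM, with 1 point per replicate and a bar at the mean. The band is the range of Mir210, 273 to 301 CPM, which Mir1193, Mir223, Mir340 and Mir330 do not touch.

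The libraries agreed closely on Mir210. The log2 ratio of replicate 2 over replicate 1, with totals scaled by TMM, was 0.15 (95% exact interval 0.03 to 0.26), a ratio of 1.11. With the total of all reads in place of counts on miRNA genes, the log2 ratio was 0.27 (0.16 to 0.39). In a two-sided exact binomial test over the 345 detected genes with Benjamini-Hochberg adjustment, Mir210 had an adjusted p of 0.0204 and was not called, since calls also needed an absolute log2 ratio of 1 or more. This sets 1 library against the other under counting error alone and says nothing of conditions. By that rule 3.19% of the detected genes were called, 11 of 345, and an adjusted p below 0.05 at any size was reached by 53.6% of them, 26.7% as higher in replicate 2 and 27.0% as lower. The adjusted p of Mir210 was 0.0885 with DESeq2 size factors and 1.0 in edgeR's exact test with an assumed coefficient of variation of 0.2, and ranged from 8.11e-06 to 1.0 over the settings tried.

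Against genes of like depth, the difference between the libraries was somewhat below the median for Mir210, and many such genes differed less. Of the 20 detected genes nearest in mean CPM, 8 had a smaller and 12 a larger absolute log2 ratio, with a median of 0.20. Of the 50 nearest, which ran from 154 to 529 CPM, 16 had a smaller and 34 a larger absolute log2 ratio, and their median was 0.24. Their log2 ratios ran from -0.94 to 0.85, 33 were higher and 17 lower in replicate 2, and 47 of the 50 differed by less than 1.5-fold. Over all 345 detected genes, 120 (34.8%) had a smaller absolute ratio than Mir210, and the median log2 ratio was 0.02.

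**Figure D3:**
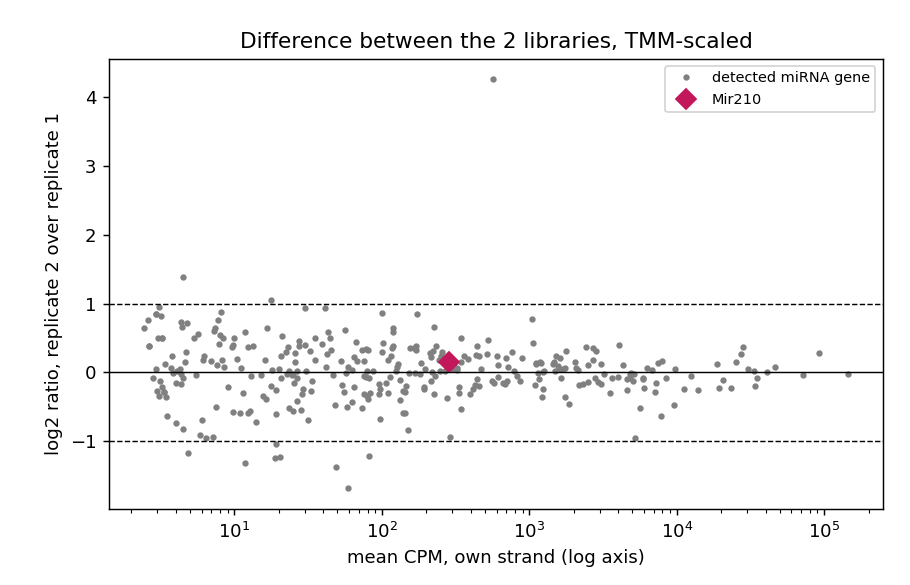
Log2 ratio of replicate 2 over replicate 1 after TMM scaling against mean CPM (log axis) for the 345 detected miRNA genes, with 1 point per gene. Dashed lines mark log2 ratios of -1 and 1, and Mir210, at 0.15, lies among genes of like abundance, the 50 nearest of which ran from -0.94 to 0.85.

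The libraries differed in markers of other cells. The hepatocyte marker Mir122 took 0.00563% of the counts of replicate 1 and 0.107% of those of replicate 2, while the 3 red blood cell markers, all detected, held 0.0161% and 0.00776%. Endothelial Mir126a held 4.52% and 4.78%, and the epithelial list, with 5 of 5 genes detected, 2.68% and 2.35%. Hox-cluster miRNAs of the posterior body held 24.5% and 24.7%, with 5 of 5 detected, and the renal tubule list, with 3 of 4 detected, 0.0353% and 0.0490%. The stroma and smooth muscle list, with 5 of 5 counted genes detected, held 2.48% and 2.54%. Most of that was Mir143, with 17889 of 24805 CPM in replicate 1 and 19401 of 25420 CPM in replicate 2. The leukocyte list, with 2 of 3 detected, held 0.0627% and 0.0579%. The third leukocyte gene, Mir142b, had 0 counts on its own strand in both libraries, but 1684 and 1151 on the opposite strand, which these shares leave out, and Mir142a has no row of counts. Of the skeletal muscle list 1 of 5 counted genes was detected, at 0.00748% and 0.00546% in all. Of the neuronal list 0 of 5 were detected, at 0.000135% and 0.000190%. Those shares rest on Mir9-3, with 6 and 7 counts, and Mir9-2, with 1 and 0. The counts were equal in sum, so only the library totals set the shares apart. Every undetected gene of both lists, and tubule Mir194-1, has 21 or more bases in a row in common with another miRNA hairpin. Their reads can end in the tally of several places of mapping, so these low counts do not show that those cells were absent. Replicate 2, in which Mir210 was higher by 1.11-fold, also had more Mir122. Its shares of Mir126a and of the Hox-cluster, stroma and smooth muscle, and tubule lists were higher. Its shares of the red blood cell, epithelial, leukocyte and skeletal muscle lists were lower. Within the tubule list Mir192 and Mir194-2 had log2 ratios of 0.85 and 0.87, while Mir204 was lower in replicate 2, at -0.20. Of the Hox-cluster list Mir196b was at 0.37 and Mir196a-2 at 0.11, but Mir10a, Mir10b and Mir196a-1 at -0.02, -0.03 and -0.01. Mir143 and Mir145a of the stroma and smooth muscle list were higher, at 0.12 and 0.20. Mir214, Mir199a-1 and Mir199a-2 were lower, at -0.22, -0.28 and -0.06. The lists with lower shares were mixed too, with epithelial Mir141 at 0.08 and leukocyte Mir223 at 0.02. The part of these cells in the difference of Mir210 was not tested.

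Of 27 counted genes of other miRNAs described in the response to low oxygen, 17 were more abundant than Mir210, 11 of them by over 10-fold, and 10 were less abundant. Of those less abundant genes, only Mir27a and Mir20b have no stretch of 21 bases in common with another miRNA hairpin. The low counts of the others are uncertain. Of all 345 detected genes, 128 (37.1%) were more abundant than Mir210. The lists come from cell studies and are given here for their abundance alone, since the samples contrast no oxygen levels and carry no measurement of oxygen. The list of miRNAs described as raised in low oxygen or by hypoxia-inducible factors has 21 genes. Mir24-1 has no row of counts, and 20 of the 20 others were detected. They took 12.4% of the counts of replicate 1 and 12.2% of those of replicate 2, a mean of 12.3% ± 0.113 (SD, n = 2). Their median was 1192 CPM, against 287 CPM for Mir210 and 114 CPM for all detected genes, and 13 were above Mir210 and 7 below.

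The leading members of that list were Mir322 at 30535 ± 675 CPM, the mouse counterpart of human miR-424, Mir26b at 27090 ± 3506 CPM, Mir23b at 23449 ± 2660 CPM and Mir429 of the epithelial miR-200 family at 14037 ± 1789 CPM. Mir21a, raised in many injured tissues, was at 7260 ± 543 CPM. Closest to Mir210 was Mir181a-2, at 292 ± 131 CPM. Mir155 of activated leukocytes was at 336 ± 36.0 CPM and Mir27a at 224 ± 33.1 CPM. Further below Mir210 were Mir24-2 at 114 ± 4.27 CPM, Mir103-2 at 63.3 ± 1.13 CPM and Mir103-1 at 4.81 ± 1.64 CPM. Of the 20 detected members, 10 have 21 bases in a row in common with another miRNA hairpin, including the 6 members below Mir27a, so their low counts are uncertain.

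Between the libraries these 20 genes had a median log2 ratio of -0.07, against 0.15 for Mir210 itself and 0.02 for all detected genes. In the exact binomial test, 5 passed an adjusted p of 0.05 as higher in replicate 2, 9 as lower and 6 did not pass, and 0 reached a log2 ratio of 1 as well. Their extremes were Mir103-1 at 0.72, with 19 and 22 counts (adjusted p = 0.181 in the exact binomial test), and Mir181a-2 at -0.94. The member nearest to 0 was Mir181c at -0.03.

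miRNAs described as lowered in low oxygen, or as acting on transcripts of the hypoxia-inducible factor pathway, made up a second list of 7 genes, and 7 of 7 were detected. They held 5.59% ± 0.0322 of counts (SD, n = 2). Mir17 led at 33519 ± 256 CPM, followed by Mir20a at 12589 ± 313 CPM, Mir18, the gene of miR-18a, at 4900.5 ± 16.6 CPM and Mir200b at 4619 ± 226 CPM. Mir17, Mir18 and Mir20a belong to 1 polycistron, the miR-17 cluster. Mir210 exceeded Mir20b, at 192 ± 20.7 CPM, Mir199a-2, at 75.5 ± 2.29 CPM, and Mir199a-1, at 3.32 ± 0.471 CPM. Mir199a-1 and Mir199a-2 share sequence and are uncertain. The 7 genes had a median log2 ratio of -0.06 between the libraries, with 1 gene passing as higher in replicate 2, 3 as lower and 3 not passing. Over all 345 detected genes those shares were 26.7% as higher and 27.0% as lower. The extremes were Mir199a-1 at -0.28 and Mir17 at 0.02, and Mir18 was nearest to 0 at -0.0011.

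**Figure D4:**
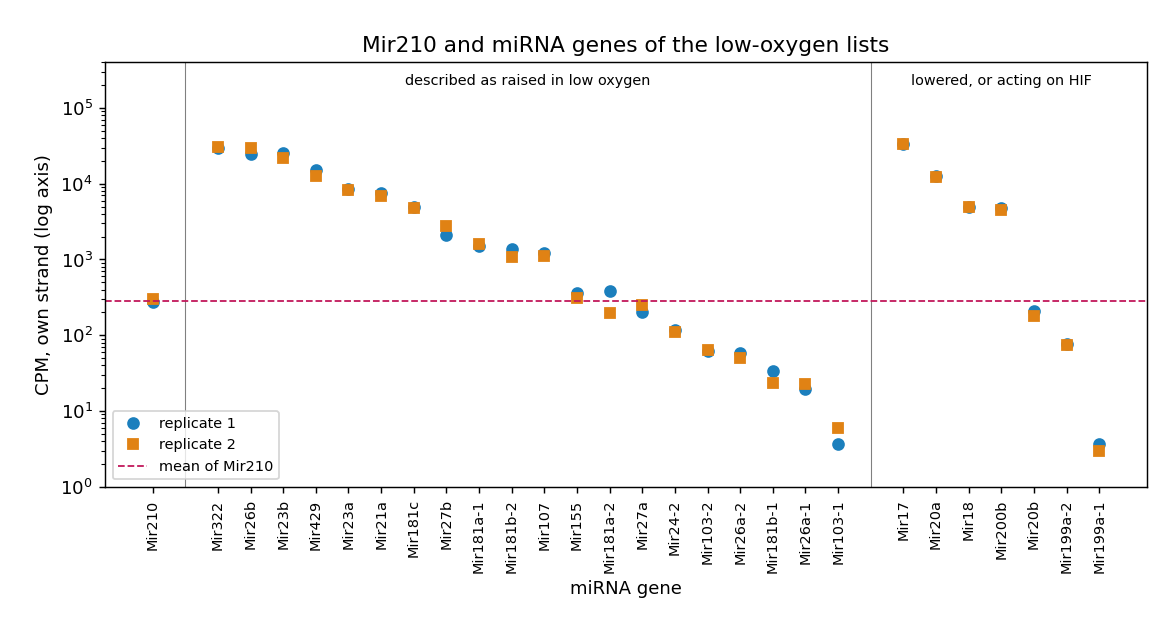
CPM on the strand of the gene (log axis) for Mir210 and the counted members of the 2 low-oxygen lists, each in order of mean CPM, with 1 point per replicate. The dashed line is the mean of Mir210, 287 CPM, which 13 of 20 genes of the first list and 4 of 7 of the second exceed.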

How the data were processed

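Per the deposited file descriptions, reads were aligned to mm10 and counted on GENCODE M4. Which aligner and counter were used is not given in the sources used here. The authors deposited raw counts for 1973 miRNA genes per library, in 3 columns (both strands, own strand, opposite strand). The 4 leading rows of each table, tallies that belong to no gene, stayed out of totals. Of 10450326 and 6765908 reads, 16.8% and 14.1% were unmapped, 28.3% and 27.5% had several places of mapping, and 4.06% and 2.91% fell on no feature.

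Symbols came from GENCODE M21, matched without version for 1894 identifiers, and the other 79 had at most 1 count. The replicate ratio used TMM-scaled totals and a two-sided exact binomial test over all detected genes. Its trial on simulated counts drew them with counting error alone, as the test assumes, so it says nothing of further spread in real libraries. With 1 group of 2 libraries, edgeR's quasi-likelihood test could not be fitted. Alternatives were unstranded counts, other totals, scalings and count minimums, edgeR's exact test, and each library alone. The gene and the lists were chosen with earlier results of these data known. Named genes were the 5 neighbours on each side in mean CPM, the 5 most alike, and, in each low-oxygen list, the 4 most abundant members and those with the extreme and smallest ratios. Mir21a, Mir155, Mir27a, Mir24-2, Mir103-2, Mir20b, Mir199a-2 and the marker genes were named beyond that rule, after their values were seen. Tools were edgeR 4.0.16 and DESeq2 1.42.0 in R 4.3.3, scipy 1.17.1 in Python 3.11.15, and RNAfold 2.7.2.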

Additional observations from a re-analysis of the deposited data

How the results depend on the processing

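The abundance of Mir210 was 150 CPM with the total of all reads as denominator and 335 CPM with Mir10a left out of the total, both set by the construction of the total. Each library alone gave 273 to 301 CPM and ranks of 126 to 129, and the rank with unstranded counts was 138. The number of genes called between the libraries was 11, and it was 4 at a minimum of 100 counts and 2 in edgeR's exact test with an assumed variation. With unstranded counts the low-oxygen lists held 12.1% and 5.49%. Of 52 alternatives, 44 were labelled as keeping the result, and Mir210 was called in none of the replicate settings tried. That tally is a weak measure of stability, since some settings could not change the value. The TMM-scaled ratio of Mir210, for example, is the same at every count minimum. The tally also includes the log2 ratio of 0.27 with the total of all reads, above the main interval of 0.03 to 0.26. With 2 libraries of 1 group, neither leaving out a library nor any scaling gives a test between conditions, and a ratio could not be computed without a library. No paired analysis was possible because there is 1 group.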
